A study of Mus musculus with 2 samples.

Results

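Malat1, Neat1, Gas5, Snhg1, Snhg12, Kcnq1ot1, Meg3 and H19 are long noncoding RNAs, transcripts that work as RNA or as the source of smaller RNAs. They were taken by gene symbol from the deposited values of group 2 innate lymphoid cell progenitors (ILC2p), and all 8 had a row among 27179 genes. They were chosen by name with their RPKM in both libraries, and the difference in Malat1 and Neat1 between the libraries, already in view, so levels and differences are given as descriptions, with no test. At 1 RPKM (reads scaled to gene length and to library size) or more in both libraries, the level called detected here, 5 of the 8 were present: Gas5, Snhg1, Snhg12, Malat1 and Neat1. Kcnq1ot1, H19 and Meg3 were below it in both.

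ILC2p are the bone marrow precursors of the lymphocytes that make type 2 cytokines. The series held 1 group of 2 libraries of wild-type C57BL/6 mice aged 8 weeks, with bone marrow cells sorted by flow cytometry and 8 mice pooled for each library. No treatment, no second genotype and no other cell type was part of the data, and the labels give neither the sort antibodies nor the sex of the mice. Pool 1 and pool 2 below are names that follow accession order. Each file carries in its heading the code of the other sample (0 of 2 headings matched), so files were assigned by the sample they were deposited under. If the headings are right, the names of the pools change places in every difference below. Each side of a difference between them is 1 library, so no replicate check exists, and means are given with the SD over both pools (n = 2).

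The depth was 20216146 reads in pool 1 and 19834586 in pool 2. All 12 ILC2 markers were detected, with summed levels of 4069 and 4172 RPKM, among them Gata3 at 292 and 250 RPKM and the IL-33 receptor gene Il1rl1 at 173 and 262 RPKM. T cell receptor and CD3 genes were also present (7 of 8 T cell markers detected, summed 986 and 1180 RPKM), while Cd8a was at 0 in both pools. Neutrophil, eosinophil and erythroid markers (8 of 8, 7 of 8 and 7 of 7 detected) summed to 1009, 60.3 and 922 RPKM in pool 1 and to 2415, 659 and 2626 RPKM in pool 2. Stromal and bone matrix markers (0 of 10 detected in both pools) summed to 77.1 RPKM in pool 1 and 3.16 RPKM in pool 2. B and plasma cell markers (4 of 8 detected) summed to 667 and 448 RPKM, and endothelial and megakaryocyte markers (1 of 6 detected) to 22.9 and 30.5 RPKM. In such bulk samples, fewer cells of a type and less RNA per cell cannot be told apart.

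As background, Malat1 and Neat1 are neighbouring nuclear RNAs. Malat1 and the long form of Neat1 end without a normal poly(A) tail. RNase P cuts each at a tRNA-like structure and leaves an A-rich tract that folds back on U-rich motifs as a triple helix. Malat1 gathers in nuclear speckles with splicing factors, and the long form of Neat1 is the scaffold of paraspeckles. Gas5, Snhg1 and Snhg12 are host genes: small nucleolar RNAs (snoRNAs), which guide chemical modification of ribosomal and other RNAs, are cut from their introns. The spliced exons of Gas5 and related hosts begin with a pyrimidine tract (5′ TOP), are translated without a useful product and are broken down by nonsense-mediated decay. Kcnq1ot1, Meg3 and H19 are imprinted RNAs, made from 1 parental chromosome. Kcnq1ot1 silences genes around it, Meg3 heads a cluster of noncoding RNAs beside Dlk1, and H19 carries miR-675 and lies beside Igf2.

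The host RNAs were the most abundant of the 8, on the per-length scale. Gas5 was at 83.3 RPKM in pool 1 and 62.0 RPKM in pool 2, a mean of 72.7 ± 15.0 RPKM (SD, n = 2). Snhg1 was at 58.7 and 39.1 RPKM (48.9 ± 13.9), and Snhg12 at 31.7 and 21.2 RPKM (26.4 ± 7.39). In both pools the order was Gas5, Snhg1, Snhg12, Malat1, Neat1. Malat1 was at 17.3 and 7.49 RPKM (12.4 ± 6.91) and Neat1 at 12 and 5.19 RPKM (8.60 ± 4.82). The ranges of Gas5 and Snhg1 did not overlap, since the lower Gas5 level (62.0 RPKM) lay above the higher Snhg1 level (58.7 RPKM). The same held for Snhg1 over Snhg12 (39.1 against 31.7 RPKM) and for Snhg12 over Malat1 (21.2 against 17.3 RPKM). The ranges of Malat1 and Neat1 overlapped.

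**Figure D1:**
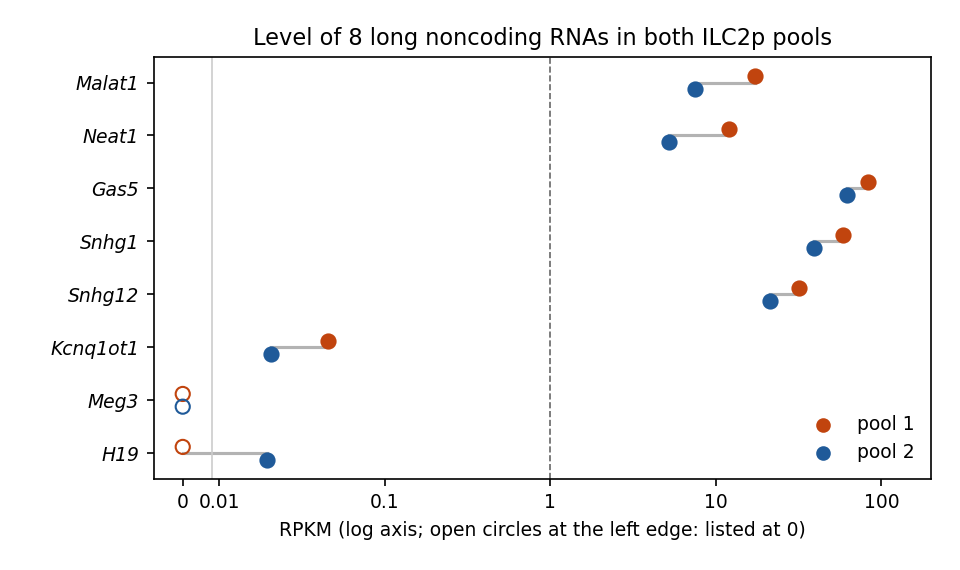
Level of each of the 8 long noncoding RNAs in RPKM on a log axis, with 1 point for pool 1 and 1 for pool 2, joined by a grey line. The dashed line is the detection level of 1 RPKM, and open circles at the left edge mark rows listed at 0, which are both pools for Meg3 and pool 1 for H19.

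Among 190 detected rows that the reference annotation calls long noncoding RNA, Gas5 had the 4th highest mean, Snhg1 the 8th, Snhg12 the 14th, Malat1 the 29th and Neat1 the 40th. The row with the highest mean was AW112010, at 469 and 429 RPKM. Gas5 stood above 89.3% of all 11013 detected genes and Neat1 above 35%. Together the 8 RNAs summed to 203 RPKM in pool 1 and 135 RPKM in pool 2, which was 0.0421% and 0.0283% of all summed RPKM. Genes present in every cell did not all have high values in these files: Gapdh was at 5.30 and 4.83 RPKM and Ppia at 23.7 and 19.1 RPKM, while Actb was at 1094 and 1358 RPKM. The reason was not tested, and no source used here gives the authors' rule for reads that match several or overlapping genes.

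The steps between RPKM values gave back whole reads and the gene length behind each value, up to a whole multiple, so the reads are lower bounds. The length behind Malat1 was 6982 bases, within 1 base of its annotated transcript of 6983 bases, with 2437 reads in pool 1 and 1037 in pool 2. For Neat1 the shortest length was 1059 bases, with 257 and 109 reads, and a length of 2118 or 3177 bases would carry 514 and 218 or 771 and 327 reads. Annotated Neat1 transcripts run from 711 to 20771 bases, so the short and the long form cannot be told apart in this value. Gas5 was counted over 2554 bases, within 2 bases of Gas5-218, an annotated transcript of 2556 bases. Of 25 annotated Gas5 transcripts 20 keep an intron, and those that do not run from 346 to 665 bases. Gas5 had 4301 and 3143 reads, or 213 and 158 CPM (reads scaled to library size alone), more than the 121 and 52.3 CPM of Malat1. At their shortest lengths, Snhg1, at 27.9 and 18.6 CPM, and Snhg12, at 19.2 and 12.9 CPM, were below Malat1 on this scale. At those lengths the order by reads was not the order per length. The CPM of Snhg1 and Snhg12 are lower bounds. Over 1428 bases, 3 times its shortest length, Snhg1 would have 1695 reads in pool 1, below Malat1, and 1107 in pool 2, above Malat1. The order of Snhg1 and Malat1 by reads is thus not settled. Snhg1 had at least 565 and 369 reads over 476 bases, and Snhg12 had 388 and 255 reads over 606 bases, the length of an annotated Snhg12 transcript.

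Malat1 (Entrez ID 72289) lies on chromosome 19 at 5795690 to 5802672, minus strand, of mm10 (GRCm38). Neat1 (66961) lies 22035 bases away, at 5824708 to 5845480 on the same strand. The last bases before each RNase P cut are shown because they are what Malat1 and the long form of Neat1 share. Sequences are from the GENCODE M21 transcripts of GRCm38, 5′ to 3′ in the sense of the RNA, with U written as T. Capitals mark exact matches to the U-rich letters TTTTGCTTTT and TTTTTCTTTT, and the A-rich tract with the GCAAAA that closes it. The first U-rich stretch of Neat1 (tttctttt) is shorter than the letters searched and stays in lower case. The Malat1 stretch spans chr19:5795982-5796109 and its annotated transcript goes on for 292 bases. The Neat1 stretch spans chr19:5824708-5824828 and stops at the annotated end.
Malat1-201: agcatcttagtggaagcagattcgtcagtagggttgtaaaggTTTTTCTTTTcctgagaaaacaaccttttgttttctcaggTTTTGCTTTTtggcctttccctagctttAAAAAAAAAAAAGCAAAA
Neat1-201: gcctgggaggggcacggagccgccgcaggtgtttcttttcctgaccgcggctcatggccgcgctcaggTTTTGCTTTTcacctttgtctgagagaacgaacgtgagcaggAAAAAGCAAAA
Both stretches hold the letters TTTTGCTTTT before the tract and AAAAAGCAAAA at its end, and the A run is longer in Malat1. The motifs were chosen after the sequences were seen, and a match is a description of letters.

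Both nuclear RNAs were higher in pool 1, and by the same factor. The Malat1 level was 2.29-fold higher in pool 1 than in pool 2 (log2 ratio 1.19), and so was the Neat1 level (2.29-fold, log2 ratio 1.19). Folds are on the log2(RPKM + 0.1) scale. On the CPM scale, the Malat1 ratio was 2.31 (95% interval 2.14 to 2.48) and the Neat1 ratio 2.31 (1.84 to 2.92). The intervals are exact binomial ones, cover counting error only and say nothing of the spread between mice. Malat1 stood at 1.44 times the RPKM of Neat1 in each pool. At 2-fold or more, 2 of the 5 detected RNAs were higher in pool 1, against 0.962% of all detected genes, and 0 of 5 were higher in pool 2, against 1.6%. Of all detected genes 84 had a higher ratio than Malat1 and 85 a higher ratio than Neat1. When the libraries were scaled to ribosomal protein genes, both log2 ratios were 0.97 and neither RNA reached 2-fold.

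The next gene was at nearly equal levels in both pools. Frmd8, 5493 bases from Neat1, was at 51.3 and 51.7 RPKM (log2 ratio -0.01).

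**Figure D2:**
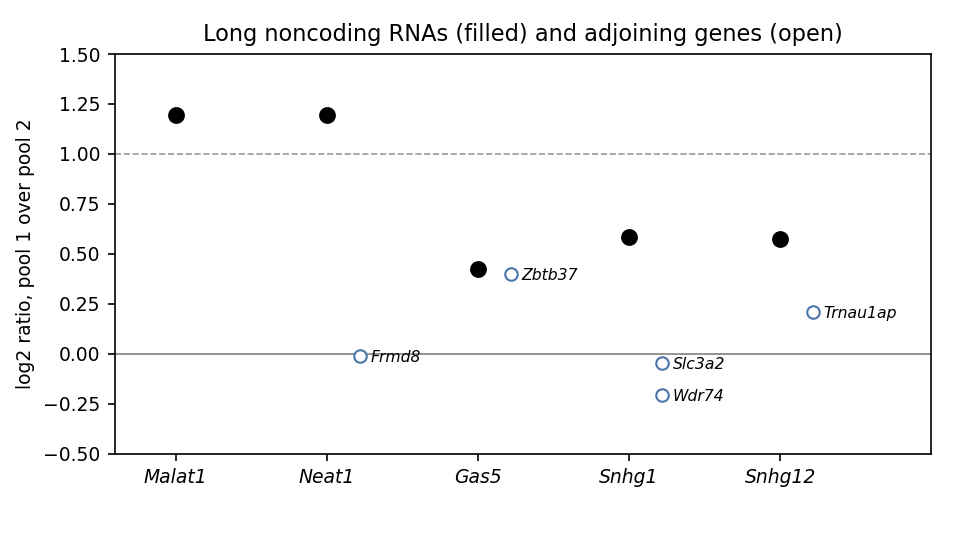
Log2 ratio of pool 1 over pool 2 for the 5 detected long noncoding RNAs (filled) and nearest or overlapping detected genes on the chromosome (open, named). The dashed line marks 2-fold, which Malat1 and Neat1 pass at 1.19 each, while Frmd8 sits at -0.01.

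The proteins that work with Neat1 in paraspeckles were, as a list, at nearly equal levels in both pools. All 18 paraspeckle protein genes were detected, 10 were higher in pool 1 and 0 were 2-fold apart, with a median log2 ratio of 0.04 beside -0.04 over all detected genes, and of -0.18 under ribosomal protein scaling. The core proteins Sfpq and Nono, which bind Neat1, were at 106 and 106 RPKM and at 97.2 and 95.5 RPKM. Hnrnpk, which steers the choice of Neat1 form, was at 103 and 114 RPKM. Tardbp, which binds Neat1 and Malat1, had the lowest ratio of the list, at 23.5 and 27.2 RPKM (log2 ratio -0.21). None of the 18 thus differed by as much as Neat1.

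Nuclear speckle genes were also centred near 0. Of 15 genes of speckles and SR splicing factors, all were detected and 8 were higher in pool 1, with a median log2 ratio of 0.02 (-0.20 under ribosomal protein scaling). The exception was Srsf5, an SR splicing factor, at 119 and 53.6 RPKM (log2 ratio 1.14). Srsf2 and Srsf1, better-known partners of Malat1, were at 108 and 106 RPKM and at 50.1 and 71.1 RPKM. Srsf6 was at 53.9 and 53.1 RPKM, and Srsf10 had the lowest ratio at 7.0 and 10.4 RPKM (log2 ratio -0.56). Speckle genes thus differed in both directions.

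RNase P cuts Malat1 and the long form of Neat1, and RNase Z trims the released tRNA-like piece. Of 11 subunit genes 10 were detected and 3 of these were higher in pool 1, with a median log2 ratio of -0.17. Pop5, an RNase P subunit, was at 65.0 and 66.2 RPKM. Rpp21 was at 50.9 and 38.5 RPKM (log2 ratio 0.40) and Pop1 at 2.52 and 3.37 RPKM (log2 ratio -0.41). None of these genes was 2-fold apart.

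**Figure D3:**
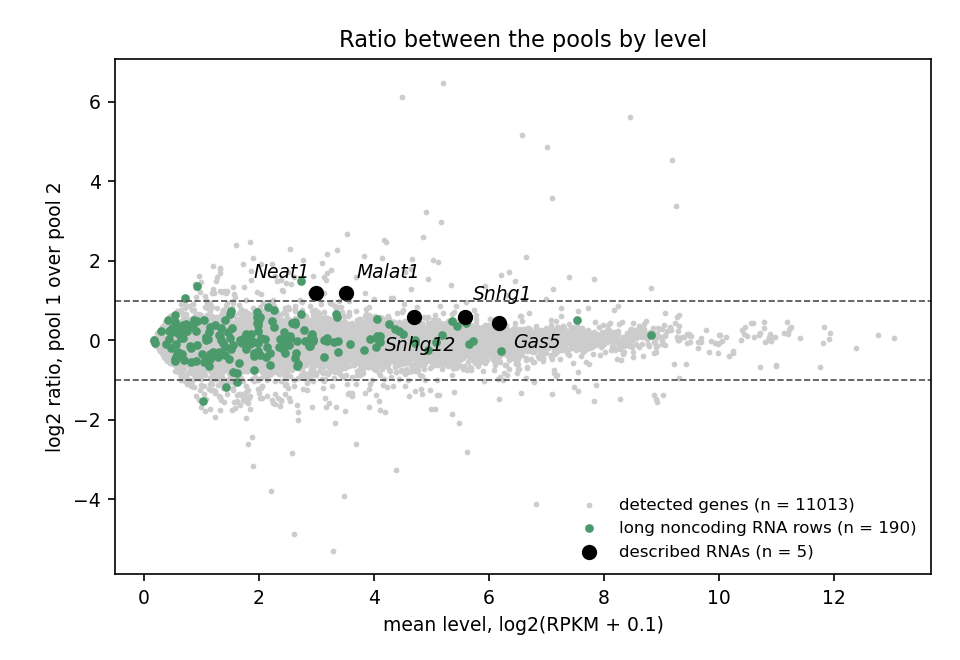
Log2 ratio of pool 1 over pool 2 against the mean level, log2(RPKM + 0.1), for 11013 detected genes (grey), 190 detected long noncoding RNA rows (green) and the 5 detected RNAs described here (black, named). Dashed lines mark 2-fold, and Malat1 and Neat1 lie above the upper one.

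The genes nearest to Malat1 and Neat1 in level and ratio were found by the distance between mean log2 level and log2 ratio, over detected genes and both pools. For Malat1 they were Spry2, an inhibitor of growth factor signalling, at 16.7 and 8.31 RPKM, Dusp2, a phosphatase of MAP kinases, at 14.6 and 7.35 RPKM, and Mir142 at 21.6 and 9.45 RPKM. For Neat1 they were Gm11974, Gm20186 at 11.1 and 4.84 RPKM and Smad7, an inhibitor of TGF-beta signalling, at 13.1 and 5.71 RPKM. Gm11974 is the row of the host gene Snhg15 and was at 11.4 and 5.11 RPKM. With 2 libraries such likeness means only that both values lie close.

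The same pool held more RNA of immediate early and stress genes, which cells switch on within minutes of a stimulus. Of 21 such genes 18 were detected, all 18 were higher in pool 1 and 16 were 2-fold apart, with a median log2 ratio of 2.35. Those with the highest means were Zfp36 at 2786 and 120 RPKM, Fos at 2441 and 49.6 RPKM, Junb at 1970 and 190 RPKM and Dusp1 at 692 and 23.9 RPKM. Egr1 had the highest ratio, at 348 and 3.81 RPKM, and Myc the lowest among the detected, at 63.9 and 46.8 RPKM. Of the stromal list, the bone matrix genes were higher in pool 1 (Col1a1 at 40.5 and 0.889 RPKM, Col1a2 at 18.7 and 0.451 RPKM), while Pdgfrb, at 0.174 and 0.820 RPKM, and Col3a1, at 0.0267 and 0.0544 RPKM, were lower there. The detected erythroid, neutrophil and eosinophil markers were higher in pool 2. The part of these differences in the ratios of Malat1 and Neat1 was not tested. Glucocorticoid receptor targets did not share one direction: Nr3c1, the receptor, was at 53.3 and 65.7 RPKM, and of 7 genes 2 were higher in pool 1 (median log2 ratio -0.26).

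Gas5 (Entrez ID 14455, chromosome 1, 161034601 to 161038539, plus strand), Snhg1 (83673, chromosome 19, 8723487 to 8726326) and Snhg12 (100039864, chromosome 4, 132308678 to 132311024) are the host RNAs. The first 40 bases of a transcript of each are shown for the pyrimidine tract that marks 5′ TOP RNAs. Capitals mark the unbroken run of C and T from the first annotated base, which was 5, 3 and 6 bases long. The stretches span chr1:161035166-161035205, chr19:8723487-8723526 and chr4:132308678-132308717.
Gas5-218: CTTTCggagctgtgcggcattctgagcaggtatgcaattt
Snhg1-203: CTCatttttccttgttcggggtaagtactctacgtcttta
Snhg12-205: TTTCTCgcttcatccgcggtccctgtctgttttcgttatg
In Snhg1 a longer run of 9 pyrimidines lies within the first 20 bases, after the A that ends its first run. Annotated starts can differ by a few bases from the starts used in these cells.

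The host RNAs were higher in pool 1 as well, by less than Malat1 and Neat1. Gas5 was 1.34-fold higher in pool 1 (log2 ratio 0.42), with a read ratio of 1.34 (95% interval 1.28 to 1.41, counting error only). Snhg1 was 1.5-fold higher (log2 ratio 0.59, read ratio 1.5, 1.32 to 1.72) and Snhg12 1.49-fold higher (log2 ratio 0.58, read ratio 1.49, 1.27 to 1.76). At 1.5-fold or more, Snhg1 joined Malat1 and Neat1, which made 3 of 5 against 2.6% of all detected genes, and 0 of 5 were as far higher in pool 2, against 5.86%. Snhg1 lay at the threshold: it was below 1.5-fold with a pseudocount of 1 RPKM (log2 ratio 0.575) and under ribosomal protein scaling (0.37). By any fold, 5 of 5 were higher in pool 1 against 42.7% of all detected genes, and against 56.3% of detected long noncoding RNA rows. The read intervals of the 3 host RNAs lay below that of Malat1. Gas5 stood at 4.82 times the RPKM of Malat1 in pool 1 and at 8.29 times in pool 2, whereas Snhg1 stood at 1.85 and 1.84 times the RPKM of Snhg12.

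Of the genes beside the hosts, the detected protein-coding ones next to Snhg1 and Snhg12 had lower ratios than the host. Zbtb37 had nearly the ratio of Gas5. Rab42, 5295 bases from Snhg12, was not detected, at 0.202 and 0.0686 RPKM (log2 ratio 0.84, above that of Snhg12). Slc3a2, the heavy chain of amino acid transporters, lies 117 bases from Snhg1 and was at 166 and 171 RPKM (log2 ratio -0.05). Wdr74 on the other side of Snhg1 was at 32.6 and 37.6 RPKM (log2 ratio -0.21). Trnau1ap, a selenocysteine tRNA factor 738 bases from Snhg12, was at 47.4 and 41 RPKM (log2 ratio 0.21). Zbtb37 overlaps an annotated end of Gas5 and was at 2.75 and 2.06 RPKM (log2 ratio 0.40). Without a stated strand setting, reads in this overlap cannot be told apart by gene. Cenpl, 32227 bases to the right of Gas5, was at 2.30 and 3.52 RPKM (log2 ratio -0.59).

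Promoter windows of the host RNAs and of Malat1 are shown because these RNAs were higher in the same pool. Each holds 250 bases before and 50 bases from the annotated start (RefSeq, GRCm38.p6), on the gene's strand. Capitals mark TGACG on either strand (CGTCA where it is on the other), the core of the CREB and ATF site, and TATA. The motifs were chosen after the windows were seen. The windows span chr1:161034916-161035215 for the downstream start of Gas5, chr19:8723237-8723536 for Snhg1, chr4:132308428-132308727 for Snhg12 and, on the minus strand, chr19:5802623-5802922 for Malat1.
Gas5: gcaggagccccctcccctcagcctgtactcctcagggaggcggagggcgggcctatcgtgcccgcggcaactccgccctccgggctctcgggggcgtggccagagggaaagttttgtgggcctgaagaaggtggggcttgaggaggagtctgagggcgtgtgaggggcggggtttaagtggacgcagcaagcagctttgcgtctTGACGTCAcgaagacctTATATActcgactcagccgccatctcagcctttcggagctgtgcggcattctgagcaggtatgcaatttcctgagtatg
Snhg1: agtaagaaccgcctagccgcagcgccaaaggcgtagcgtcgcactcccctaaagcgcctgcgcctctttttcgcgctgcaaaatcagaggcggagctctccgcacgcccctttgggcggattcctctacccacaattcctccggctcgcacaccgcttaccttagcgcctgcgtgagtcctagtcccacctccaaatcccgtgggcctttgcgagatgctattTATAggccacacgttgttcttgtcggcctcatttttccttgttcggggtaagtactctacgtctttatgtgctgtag
Snhg12: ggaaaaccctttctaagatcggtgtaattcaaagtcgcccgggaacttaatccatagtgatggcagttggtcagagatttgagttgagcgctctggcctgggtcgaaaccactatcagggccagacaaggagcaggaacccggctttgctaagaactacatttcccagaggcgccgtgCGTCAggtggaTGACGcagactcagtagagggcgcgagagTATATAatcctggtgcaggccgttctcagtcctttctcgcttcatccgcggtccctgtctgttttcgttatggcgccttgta
Malat1: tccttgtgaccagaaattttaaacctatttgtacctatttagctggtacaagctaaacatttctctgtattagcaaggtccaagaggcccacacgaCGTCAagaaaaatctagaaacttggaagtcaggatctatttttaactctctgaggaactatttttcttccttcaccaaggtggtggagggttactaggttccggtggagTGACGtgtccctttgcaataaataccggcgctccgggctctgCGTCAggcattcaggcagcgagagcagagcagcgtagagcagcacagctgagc
The 3 host windows each hold TATA with its first base 35 to 25 bases before the start, at -29, -27 and -32, which 4.49% of 32851 windows do. The Gas5 window holds the full TGACGTCA at -46, as 1.79% of windows do. The window of Meg3, which was at 0 in both pools, also holds TGACGTCA (at -57) and TATA (at -27), and the window of the upstream Gas5 start holds neither. The letters are thus not particular to RNAs higher in pool 1. TGACG occurs in the Gas5, Snhg12 and Malat1 windows, as in 20.8% of windows, and its letters are not in the Snhg1 window. No site or factor follows from these letters.

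The snoRNAs that the hosts carry had few reads. Of 10, 8 and 4 listed snoRNAs of Gas5, Snhg1 and Snhg12, 1, 1 and 4 had rows. Snord47 of Gas5 had 13 reads in pool 1 and 7 in pool 2, and Snord22 of Snhg1 had 20 and 5 reads. The Snord22 read ratio of 3.92 (95% interval 1.43 to 13.4) left 1 outside its interval, and that of Snord47 (1.82, 0.676 to 5.39) did not. The Snhg12 snoRNAs Snora16a, Snora44, Snora61 and Snord99 had 6 and 1, 9 and 10, 8 and 5, and 5 and 4 reads. All of these lie inside the host gene, so reads of host and snoRNA can overlap. The box C/D snoRNAs Snord47 and Snord22 are shown as annotated transcripts. Capitals mark the C box (RTGATGA, R being A or G, or a near match) and the D box CTGA, the motifs that bind the snoRNA proteins. They span chr1:161038082-161038158 and chr19:8725866-8725991.
Snord47-201: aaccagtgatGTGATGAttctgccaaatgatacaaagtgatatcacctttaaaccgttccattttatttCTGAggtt
Snord22-201: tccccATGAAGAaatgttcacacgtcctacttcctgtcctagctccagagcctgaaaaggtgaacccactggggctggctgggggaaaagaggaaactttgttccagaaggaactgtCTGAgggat

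Over all 123 snoRNA rows, 87 had a read in either pool, 61 of these were higher in pool 1 and 26 in pool 2 by CPM. Their reads summed to 576 and 261, a ratio of 2.17 (95% interval 1.86 to 2.51, counting error only). Among the 36 detected, 27 were higher in pool 1 (75%), 15 were 2-fold higher in pool 1 (41.7%) and 0 in pool 2, with a median log2 ratio of 0.88. Most of these rows rest on few reads, with medians over rows of 5 reads in pool 1 and 1 in pool 2. The labels name the RNA preparation kit and do not say how RNA was selected.

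**Figure D4:**
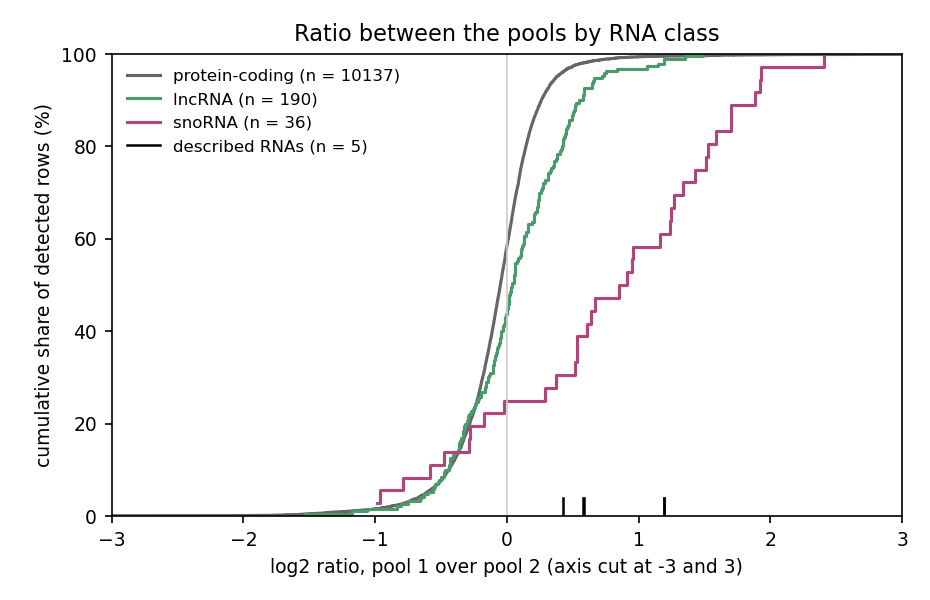
Cumulative share of detected rows against the log2 ratio of pool 1 over pool 2, with curves for protein-coding genes, long noncoding RNAs and snoRNAs, and black ticks for the 5 detected RNAs described here. The axis stops at -3 and 3, and the snoRNA curve, with a median of 0.88, lies to the right of the protein-coding one, with a median of -0.05.

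Other snoRNA host RNAs were also mostly higher in pool 1. Of 18 listed 11 were detected, 8 were higher in pool 1 and 1 was 2-fold apart, Snhg15, with a median log2 ratio of 0.35 beside 0.04 over detected long noncoding RNAs. Zfas1 and Epb41l4aos had the highest means, at 49.1 and 52.1 RPKM and at 48.9 and 38.3 RPKM. Snhg8 was at 48.3 and 34.7 RPKM and Snhg6 at 23.8 and 21.3 RPKM. Snhg3 had the lowest ratio, at 1.13 and 1.62 RPKM (log2 ratio -0.48). It rested on at least 10 and 14 reads, and the read ratios of the 3 hosts that were lower in pool 1 had intervals holding 1: Snhg3 at 0.701 (0.278 to 1.70), Snhg4 at 0.970 (0.709 to 1.33) and Zfas1 at 0.941 (0.849 to 1.04). Intervals holding 1 were also found among the hosts higher in pool 1. These were Snhg6 at 1.12 (0.906 to 1.38), Snhg7 at 1.10 (0.540 to 2.25) and Snhg16 at 1.30 (0.913 to 1.85). Scaled to ribosomal protein genes, the median log2 ratio of the detected hosts was 0.13.

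Translation genes of the 5′ TOP class, whose RNAs share the pyrimidine start, were all slightly higher in pool 1 (17 of 17, 0 at 2-fold, median log2 ratio 0.14). Eef1a1, Eef2, Rack1 and Tpt1 were at 2764 and 2662, 1990 and 1783, 1606 and 1530, and 1090 and 997 RPKM. Eif3h had the lowest ratio of these, at 335 and 333 RPKM (log2 ratio 0.01). Gas5 at 0.42, Snhg1 at 0.59 and Snhg12 at 0.58 lay above the median of this list and of 76 ribosomal protein genes (0.22, with 70 higher in pool 1). Under ribosomal protein scaling the 5′ TOP median was -0.08, while the host RNAs were at 0.20 for Gas5, 0.37 for Snhg1 and 0.36 for Snhg12.

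The core proteins of snoRNA particles were higher in pool 1 in 8 of 8 genes, by a median log2 ratio of 0.13, which was -0.09 under ribosomal protein scaling. Nop10 and Nhp2, of the box H/ACA particle, were at 101 and 98.7 RPKM and at 67.0 and 54.1 RPKM. Nop58, of the box C/D particle, was at 62.8 and 59.98 RPKM, and Dkc1, the pseudouridine synthase, at 40.9 and 35.8 RPKM. Nonsense-mediated decay factors, which break down Gas5 RNA, were higher in pool 1 in 8 of 10 genes, with a median log2 ratio of 0.13 (-0.09 under ribosomal protein scaling). Upf3a was at 27.6 and 21.9 RPKM, Upf3b had the highest ratio (log2 ratio 0.41) and Smg8 the lowest (log2 ratio -0.40). No gene of either list was 2-fold apart.

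**Figure D5:**
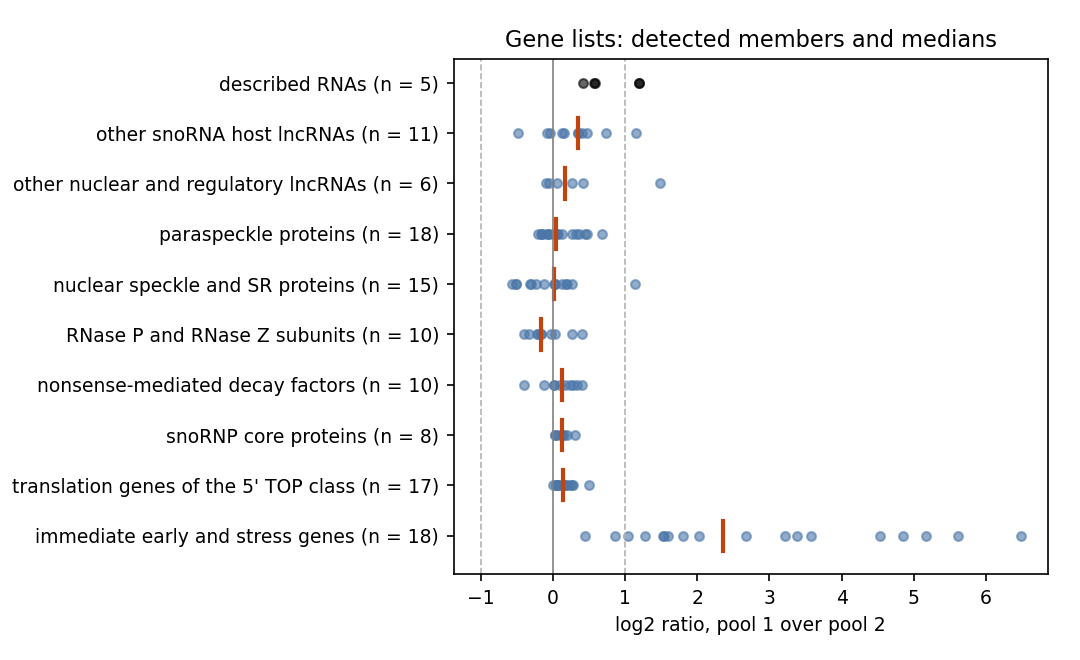
Log2 ratio of pool 1 over pool 2 for the detected genes of each list (points) and their median (red bar, not drawn for the 5 RNAs described here), with dashed lines at 2-fold. The other snoRNA hosts have a median of 0.35, and the lists of partner proteins lie between -0.17 and 0.13.

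The gene nearest to Gas5 in level and ratio was Tomm7, a subunit of the mitochondrial import channel, at 83.9 and 62.4 RPKM, then Evl and Arhgap4, regulators of the actin cytoskeleton, at 80.3 and 63.7 RPKM and at 78.8 and 63.4 RPKM. The nearest to Snhg1 were Smim4, Sh3bp1 and the imprinted RNA Peg13, the last at 56.1 and 41.8 RPKM. The nearest to Snhg12 were Mbd6, Vamp2 and Chn2, with Mbd6 at 30.7 and 20.9 RPKM.

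Other nuclear and regulatory long noncoding RNAs were higher in either pool. Of 23 listed 18 had rows and 6 were detected, 4 of them higher in pool 1, with a median log2 ratio of 0.17 (-0.05 under ribosomal protein scaling). Xist, the RNA of X inactivation, was at 11.1 and 3.89 RPKM (log2 ratio 1.49), the highest ratio among the 190 long noncoding RNA rows, where Malat1 came 3rd and Neat1 4th. Tug1 was at 22.6 and 18.7 RPKM. Norad, a cytoplasmic RNA that binds Pumilio proteins, was at 11.6 and 12.4 RPKM (log2 ratio -0.09) and had the lowest ratio of these. Over all detected long noncoding RNA rows 3.16% were 2-fold higher in pool 1 and 1.58% in pool 2, beside 0.602% and 1.52% of protein-coding genes.

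The imprinted RNAs were at or near 0. Kcnq1ot1 (Entrez ID 63830, chromosome 7, 143213111 to 143296547) was at 0.0451 and 0.0205 RPKM, from 76 and 34 reads over 83437 bases. Its read ratio was 2.19 (95% interval 1.45 to 3.39, counting error only), and the log2(RPKM + 0.1) scale gave 1.2-fold. Kcnq1, in which it lies antisense, was at 0 and 0.0166 RPKM. Genes around it were expressed: Cd81, Tspan32 and Nap1l4 were at 248 and 235, 223 and 196, and 115 and 114 RPKM, and Tssc4 was at 19.7 and 24.8 RPKM. Cdkn1c, a cell cycle inhibitor known as a target of Kcnq1ot1, was at 2.62 and 2.08 RPKM. Of 9 genes of this domain 5 were detected and 0 were 2-fold apart.

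H19 (Entrez ID 14955, chromosome 7, 142575530 to 142578146) had 0 reads in pool 1 and 1 in pool 2, or 0 and 0.0193 RPKM. A count of 0 in pool 1 allows up to 3 reads, or 0.0567 RPKM, so no fold is given. Igf2, the growth factor gene across the imprinted domain, was at 8.80 and 6.49 RPKM, while Mir675, inside H19, was at 0 in both pools. Lsp1, a leukocyte actin-binding protein gene, was at 282 and 324 RPKM, and Mrpl23 at 12.3 and 11 RPKM. H19 was thus not detectable at this depth beside a detected Igf2.

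Meg3 (Entrez ID 17263, chromosome 12, 109540996 to 109571729) was listed at 0 in both pools, which allows up to 0.148 and 0.151 CPM (3 reads). Rian and Mirg, the noncoding RNAs downstream of Meg3, Rtl1, Dio3 and Mir770 were also at 0 in both. Dlk1, the protein-coding gene across the domain, was at 0.0308 and 0.0314 RPKM. No gene of the Dlk1 and Meg3 domain was detected. Other imprinted genes were present, with 5 of 12 detected, among them Gnas at 220 and 202 RPKM, Igf2r at 8.81 and 8.88 RPKM and Impact at 9.80 and 7.82 RPKM.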

How the data were processed

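The authors deposited RPKM values per Entrez gene for 2 libraries, each from 100 ng of total RNA (RNeasy Micro, TruSeq RNA kit), per the labels' protocols. CASAVA 1.8.2, featureCounts (no version), edgeR 3.8.2 and 3.22.0 and the mm10 build are named, per the submitters' processing notes. Neither the aligner nor a strand setting is given in the sources used here. Members and gene lists were chosen with earlier results of these data known. Named genes are all 8 members, the 4 highest and the most extreme detected genes of each list, the 3 nearest in pattern and the neighbours on the chromosome; some others were named after their values were seen, and some genes that the rule takes are left out of the text.

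Ratios used log2(RPKM + 0.1). Genes were called by fold alone at 1 RPKM or more in both libraries. Whole reads were recovered for 17233 of 17233 genes above 0 (100%), and summed to 90.0% and 89.8% of the totals; 0.70% of 1000 genes did so when the totals were shifted by 1 part in 1000. The method was tested on simulated data. Of the IDs, 25275 matched the RefSeq table of GRCm38.p6. Per-sample columns not used numbered 0. Alternatives were other pseudocounts, detection levels, folds and scalings, leaving out a library and, added after seeing the data, CPM from the recovered reads. Python 3.11.15, numpy 2.4.6, pandas 2.3.3, scipy 1.17.1 and matplotlib 3.10.9 were used.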

Additional observations from a re-analysis of the deposited data

How the results depend on the processing

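No paired analysis was possible because there is 1 group. Scaled to ribosomal protein genes, 0 of the 8 RNAs were 2-fold higher in pool 1, with Malat1 and Neat1 each at a log2 ratio of 0.97; this scaling lowers every log2 ratio by the median of ribosomal protein genes, 0.22. Of 282 genes 2-fold apart 37.6% were higher in pool 1, and of 403 under that scaling 19.6%. The 282 became 931 at 1.5-fold, 102 with detection at 5 RPKM and 1535 with no filter. Detected RNAs numbered 5 without either replicate (5 to 5). On the CPM scale, chosen after seeing the data and used without the detection level, 3 RNAs were 2-fold higher in pool 1. The third was Kcnq1ot1, with a read ratio of 2.19. The share of all genes past 2-fold on that scale was not computed, so this count cannot be set beside one. Log2 ratios ran from 0.97 to 1.24 for Malat1 and Neat1, from 0.20 to 0.47 for Gas5, from 0.37 to 0.63 for Snhg1 and from 0.36 to 0.62 for Snhg12 over the pseudocounts and scalings tried. No log2 ratio of these 5 RNAs changed sign. Under ribosomal protein scaling the list medians of paraspeckle (-0.18), speckle (-0.20), 5′ TOP (-0.08), snoRNA particle (-0.09), nonsense-mediated decay (-0.09) and other nuclear RNA genes (-0.05) were below 0. Depth limits the snoRNAs, H19 and Meg3.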
